A study of Mus musculus with 12 samples.

Results

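Ddx58, Ifih1, Dhx58, Mavs, Tmem173, Trex1, Adar and Eif2ak2 form the core of cytosolic RNA and DNA sensing. These 8 genes were chosen by symbol from 43613 named items in expression tables of mouse splenic B cells, and all 8 passed the filter that left 14603 items for testing. In the averaged comparisons, STING (Tmem173) lay lower in germinal centre (GC) than in non-GC B cells in all 6 matched pairs of libraries. The RNA-activated kinase PKR (Eif2ak2) lay lower in Ifnar1-knockout than in control libraries in 5 of 6 pairs and was listed at 0 in both libraries of the other pair. None of the 8 genes passed the adjusted threshold in any comparison. Every direction given for them therefore describes these 12 libraries and is no call.

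Inside a cell, foreign or misplaced RNA is bound by the helicases RIG-I (Ddx58) and MDA5 (Ifih1), which pass the signal to the mitochondrial adaptor MAVS. Cytosolic DNA is sensed by cGAS, whose product activates STING in the endoplasmic reticulum, and both routes end in kinases that switch on type I interferon. The nuclease TREX1 and the editing enzyme ADAR remove or disguise self nucleic acid, and loss of either is known to provoke interferon production. Many of these genes are themselves raised by interferon acting through its receptor, one chain of which is encoded by Ifnar1, and overactive sensing is a recognised feature of lupus-like disease.

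RNA was sequenced from splenic B cells of female mice aged 6 months. All animals had a C57BL/6 background and the Sle1b interval, which predisposes to lupus. The Ifnar1KO groups, labelled B6.Sle1b.IFNaR1-/-, additionally lack Ifnar1 by their label, and the Sle1b groups, labelled B6.Sle1b, are their controls. GC B cells were sorted as B220+ GL7+ CD95+ and non-GC B cells as B220+ GL7- CD95-. The 4 groups, Ifnar1KO GC, Ifnar1KO non-GC, Sle1b GC and Sle1b non-GC, held 3 libraries each. One library of each group belonged to each of 3 batches, within which the deposited tables set libraries against each other. No mice without Sle1b were included, so the comparisons are between autoimmune-prone animals. The protocol speaks of pooled splenocytes, and nothing in the labels ties each library to an animal of its own. The p-values therefore measure spread among the samples alone, and part of it may be technical.

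Levels are FPKM, fragment counts scaled by transcript length and library size, joined within a batch from the 2 or 3 tables that hold a library. A joined level is fitted and can lie outside the deposited values. Adar in the Sle1b GC library of batch 1, for example, has a joined level of 10.6 FPKM and deposited values of 7.98 to 9.28 FPKM. Differences are in log2(FPKM + 1), a scale that compresses those of low genes. One read on 1 kb was worth 0.138 to 0.405 FPKM in the 12 libraries. Batch 3 stood apart. The cytoskeletal gene Actb measured 11.5 FPKM in the Ifnar1KO GC library and 5.78 FPKM in the Sle1b GC library of that batch, against 287 FPKM or more in GC libraries of batches 1 and 2. Of the 32 values of the 8 genes in batch 3, 14 were listed at 0, against 1 of 64 in batches 1 and 2. The sort was checked with Fas, which encodes the gated marker CD95 and was picked for this after its values were seen. It measured 13.9, 78.1 and 11 FPKM in Ifnar1KO GC and 3.10, 1.73 and 15.5 FPKM in Ifnar1KO non-GC cells, and 13.1, 57.9 and 4.79 FPKM in Sle1b GC and 5.54, 9.76 and 5.0 FPKM in Sle1b non-GC cells. It was higher in GC in batches 1 and 2 of both genotypes and lower in GC in batch 3 of both. Ifnar1 itself went against the genotype label. Its level was 14.2, 15.4 and a listed 0 FPKM in Ifnar1KO GC and 8.28, 9.89 and 6.90 FPKM in Sle1b GC cells, and 51.5, 69.1 and 2.61 FPKM in Ifnar1KO non-GC and 14.5, 36.1 and 3.38 FPKM in Sle1b non-GC cells. It was thus higher in the libraries labelled Ifnar1KO in batches 1 and 2 and lower in batch 3. The value covers the whole locus, so transcript left by the targeting would count, and every direction between genotypes rests on the labels.

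Because the knockout removes a receptor through which interferon acts, the promoters of the 8 genes were searched for the core of the interferon-stimulated response element, 2 GAAA blocks set apart by 2 bases. RefSeq promoter windows (build GRCm38.p6) run from 250 bases before to 50 bases after each annotated start and were read on both strands. Windows of 6 of the 8 genes were searched. Dhx58 had no entry, and the sequence of Tmem173 was not used here. GAAANNGAAA was present in the windows of Ddx58, Ifih1 and Eif2ak2, against 3.44% of all 32851 windows. With a spacer of 1 base, GAAANGAAA was present in 3.17% of windows, among them that of Ddx58 and 1 of 3 windows of Adar; the 2 motifs can overlap in a longer run of such blocks. The 30 bases around each match are shown 5′ to 3′ on the gene's own strand to show where in each promoter the letters lie, with the matching bases in capitals.
Ddx58, 2-base spacer: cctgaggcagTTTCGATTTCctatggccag
Ddx58, 1-base spacer: tctaggttcaGAAACGAAActggatccccg
Ifih1, 2-base spacer: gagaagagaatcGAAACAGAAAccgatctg
Eif2ak2, 2-base spacer: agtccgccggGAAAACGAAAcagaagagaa
Adar, 1-base spacer: ccttttcaagGAAACGAAAgtgaactctgg
The first Ddx58 match lies on the opposite strand, so its capitals read as the reverse complement of the motif. Counting the annotated start as base 1, the matches begin at base 3 and base -60 in Ddx58, 33 in Ifih1, 19 in Eif2ak2 and 29 in Adar. In GRCm38 the windows are chr4:40239804-40239833 and chr4:40239866-40239895 for Ddx58, chr2:62646206-62646235 for Ifih1, chr17:78882535-78882564 for Eif2ak2 and chr3:89730736-89730765 for Adar. Of these 4 genes, Adar is on the plus strand and the others are on the minus strand. Neither motif was present in the windows of Mavs and Trex1. A match describes the letters of a window and shows no binding.

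Of the RNA receptors, Ddx58 (deposited locus chr4:40203773-40239828, GRCm38) had the highest level in 11 of 12 libraries, and its libraries disagreed. RIG-I, its product, binds short double-stranded RNA with a free end. Ddx58 measured 18.2, 5.25 and 3.13 FPKM in batches 1, 2 and 3 of Ifnar1KO GC cells, and 17.4, 30.5 and 2.17 FPKM in Ifnar1KO non-GC cells. The values were 3.12, 23.3 and a listed 0 FPKM in Sle1b GC cells, and 14.5, 50.4 and 0.668 FPKM in Sle1b non-GC cells. The groups overlapped throughout, and the highest library was batch 2 of Sle1b non-GC cells. GC against non-GC, Ddx58 was lower in all 3 batches of Sle1b mice and in 1 of 3 batches of Ifnar1KO mice, with a log2 difference averaged over genotypes of -0.94 (SE 0.55; limma, adjusted p = 0.387). Ifnar1KO against Sle1b in GC cells, it differed by 2.22, -1.96 and 2.06 in batches 1, 2 and 3. That spread within 1 comparison exceeded the averaged difference of 0.47 (SE 0.55, adjusted p = 0.991), which was -0.05 in batches 1 and 2 alone.

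Ifih1 (chr2:62595798-62646255) was the scarcest of the 8 genes in most groups, and was low in Ifnar1KO non-GC cells in every batch. MDA5, which it encodes, binds long double-stranded RNA. Ifih1 measured 0.399, 0.386 and 0.168 FPKM in Ifnar1KO non-GC cells, against 4.38, 5.87 and a listed 0 FPKM in Sle1b non-GC cells. All 3 Ifnar1KO values lay below the 2 Sle1b values of batches 1 and 2 and above that of batch 3. In reads, estimated over the longest GENCODE M21 transcript, this was 20, 9 and 4 reads against 144, 169 and 0. Its GC values were 1.64, a listed 0 and 0.0193 FPKM in Ifnar1KO, against 0.717, 3.73 and 0.364 FPKM in Sle1b, and these groups overlapped. The log2 difference of Ifnar1KO against Sle1b was -1.35 (SE 0.65; unadjusted p = 0.0593 from limma across all items, adjusted p = 1.00) in non-GC cells. Averaged over cell types it was -1.01 (SE 0.46; unadjusted p = 0.0476, adjusted p = 0.991), with Ifih1 lower in 4 of 6 pairs. In batches 1 and 2 alone the averaged difference was -1.46 (SE 0.54, adjusted p = 0.999). GC against non-GC, it differed by -0.25 (SE 0.46, adjusted p = 0.810).

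Dhx58 encodes LGP2, a relative of RIG-I without its signalling domains that tunes both receptors. Its level was low, at 3.76, 1.49 and a listed 0 FPKM in Ifnar1KO GC and 2.53, 6.63 and a listed 0 FPKM in Ifnar1KO non-GC cells. The values were 2.92, 1.99 and 2.63 FPKM in Sle1b GC cells and 1.88, 4.26 and a listed 0 FPKM in Sle1b non-GC cells. No group stood apart. GC against non-GC differed by 0.04 (SE 0.47; limma, adjusted p = 0.974) and Ifnar1KO against Sle1b by -0.18 (SE 0.47, adjusted p = 0.995), and both signs turned in batches 1 and 2 alone. The deposited locus (chr11:100574904-100704271) spans 129.4 kb, against 9.4 kb for the GENCODE gene. It takes in Cnp, Dnajc7, Nkiras2 and Zfp385c, which also have rows of their own, so reads of these genes may have entered the value.

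Mavs (chr2:131234063-131248025), the adaptor that RIG-I and MDA5 share, was the one gene of the 8 whose batch 3 value was the highest of its group in Sle1b non-GC cells. Its values were 6.60, 7.64 and 1.47 FPKM in Ifnar1KO non-GC cells, against 11.2, 16.6 and 20.3 FPKM in Sle1b non-GC cells. These groups did not overlap, and Ifnar1KO was lower in all 3 batches, as it was for 143 of 14603 items (0.979%). The log2 difference was -1.61 (SE 0.78; unadjusted p = 0.0618 from limma across all items, adjusted p = 1.00), with -0.68, -1.03 and -3.11 in batches 1, 2 and 3, so that batch 3 contributed most of it. In batches 1 and 2 alone it was -0.86 (SE 0.60, adjusted p = 1.00). In GC cells Mavs measured 8.14, 20.2 and a listed 0 FPKM in Ifnar1KO and 12.1, 6.89 and 2.28 FPKM in Sle1b, and those groups overlapped. Averaged over cell types, Ifnar1KO against Sle1b differed by -0.95 (SE 0.55, adjusted p = 0.991). Averaged over genotypes, GC against non-GC differed by -0.60 (SE 0.55, adjusted p = 0.595), and by 0.13 in batches 1 and 2 alone.

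Tmem173 (chr18:35733678-35740554), which encodes STING, had the largest difference by cell type among the 8 genes when averaged over genotypes and all 3 batches. In Sle1b alone Ddx58 and Mavs differed more, by -1.25 each, as did Ddx58 in the average without batch 3, by -1.32. It measured 4.43, 4.29 and a listed 0 FPKM in Ifnar1KO GC cells, against 16.5, 21.4 and 2.36 FPKM in Ifnar1KO non-GC cells. In Sle1b mice it stood at 6.73, 10.9 and a listed 0 FPKM in GC cells, against 13.8, 11.9 and 4.18 FPKM in non-GC cells. Within each batch and genotype the GC library was lower, with log2 differences of -1.69, -2.08 and -1.80 in Ifnar1KO and -0.93, -0.11 and -2.37 in Sle1b. Such a pattern of lower values in all 6 pairs was shared by 853 of 14603 items (5.84%). The averaged log2 difference was -1.50 (SE 0.38; limma, adjusted p = 0.109), and its unadjusted p ranked 255th of 14603. It was -1.86 (SE 0.54, adjusted p = 0.307) in Ifnar1KO and -1.14 (SE 0.54, adjusted p = 0.544) in Sle1b. The genotype by cell type interaction was -0.72 (SE 0.77, adjusted p = 0.996). Without batch 3 the averaged difference was -1.20 (SE 0.37, adjusted p = 0.0900), and that in Sle1b was -0.52 (SE 0.52, adjusted p = 0.701). Across all items the median GC against non-GC difference was -0.26. With each library centred on its median, that value was 0.06 and Tmem173 differed by -1.18. The lowest adjusted p among the 8 genes was 0.174 there (limma). The Ifnar1KO GC library of batch 3 had a median log2(FPKM + 1) of 0 before centring. The part of a shift of whole libraries in the difference was not tested. Between genotypes Tmem173 differed by -0.22 (SE 0.38, adjusted p = 0.991).

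Markers of other cells were set beside the Tmem173 result, as STING is also found in T and myeloid cells. The summed level of 6 T cell markers ran over 1.14 to 41.3 FPKM in GC and 5.65 to 17.3 FPKM in non-GC libraries and was lower in GC in 2 of 6 pairs. That of 7 myeloid markers ran over 0.0263 to 149 FPKM in GC and 1.1 to 26.5 FPKM in non-GC libraries and was lower in GC in 3 of 6 pairs. Cd3g and Cd8a were listed at 0 in all Ifnar1KO GC and all Sle1b non-GC libraries, and Cd14 was listed at 0 in every library outside Sle1b GC cells. The 6 B cell markers summed lower in GC in all 6 pairs, as Tmem173 did, with 20.0 to 1760 FPKM in GC and 205 to 2010 FPKM in non-GC libraries. So did the 5 non-GC B cell markers, while 5 NK cell markers were lower in GC in 5 of 6 pairs and equal in the other. Plasmacytoid dendritic cells also carry B220, and 5 of their 6 listed markers were in the files. Their sum was lower in GC in 4 of 6 pairs, at 1.29 to 91.6 FPKM in GC and 16.3 to 73.2 FPKM in non-GC libraries. Most of their sum came from Tcf4, except in both libraries of batch 3 of Sle1b. Their defining marker Siglech was listed at 0 in all Ifnar1KO GC libraries, against 7.54, 4.88 and 0 FPKM in Ifnar1KO non-GC cells, and measured 0.270, 0 and 0.850 FPKM in Sle1b GC, against 2.75, 3.00 and 10.3 FPKM in Sle1b non-GC cells. Bst2, another marker of these cells, was lower in GC in the 4 pairs of batches 1 and 2 and listed at 0 throughout batch 3. Other markers on the list went both ways. Tcf4 measured 26.9, 59.6 and 1.25 FPKM in Ifnar1KO GC, against 30.5, 46.9 and 23.5 FPKM in Ifnar1KO non-GC cells. In Sle1b it measured 87.5, 59.6 and 1.07 FPKM in GC, against 28.5, 58.6 and 4.73 FPKM in non-GC cells. Pacsin1 was higher in GC in batch 1 of Ifnar1KO and batch 2 of Sle1b, and Ccr9 only in batch 3 of Sle1b. The part of plasmacytoid dendritic cells in the result was not tested. In such sorted bulk samples, fewer cells of a type and less RNA per cell cannot be told apart.

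Trex1, the DNA exonuclease, shares its deposited locus (chr9:109038565-109074124) with Atrip, a partner of the checkpoint kinase ATR, and the 2 genes cannot be told apart in the value. The locus also takes in Shisa5 on the opposite strand, which has a row of its own, so its reads may have entered the value. The joint item measured 3.68, 10.3 and 0.186 FPKM in Ifnar1KO GC and 8.45, 6.96 and a listed 0 FPKM in Ifnar1KO non-GC cells. The libraries gave 5.84, 10.6 and 5.06 FPKM in Sle1b GC and 16.8, 2.96 and a listed 0 FPKM in Sle1b non-GC cells. The groups overlapped, and GC was lower than non-GC in batch 1 and higher in batches 2 and 3 in both genotypes. The averaged differences were 0.41 (SE 0.53; limma, adjusted p = 0.714) for GC against non-GC and -0.48 (SE 0.53, adjusted p = 0.991) for Ifnar1KO against Sle1b.

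**Figure D1:**
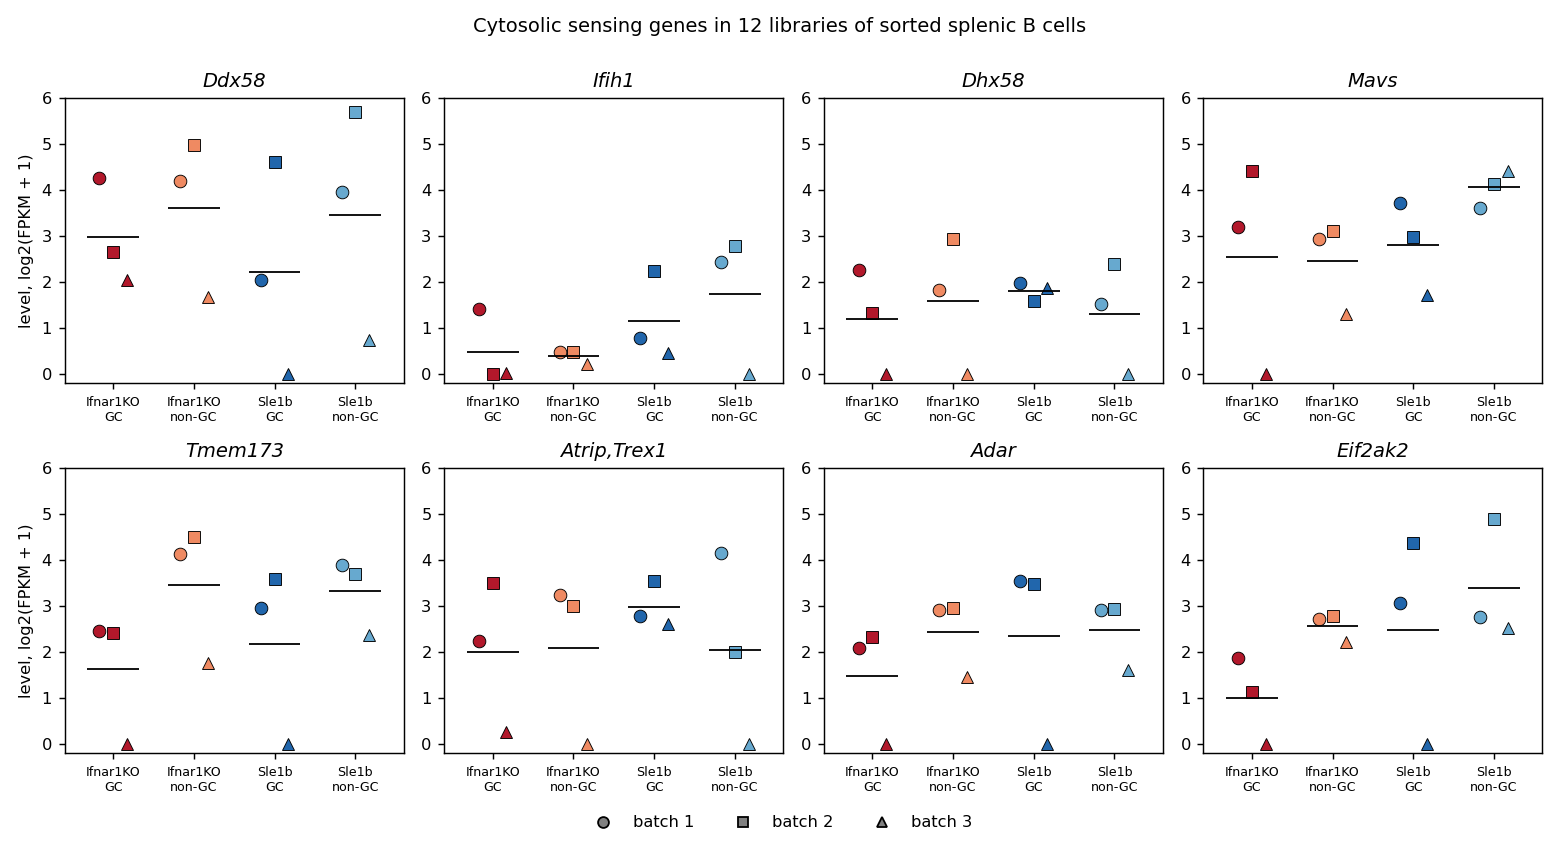
Levels of the 8 genes as log2(FPKM + 1) in 12 libraries, with Ifnar1KO GC, Ifnar1KO non-GC, Sle1b GC and Sle1b non-GC from left to right, symbols for batches and a line at each group mean (n = 3). Tmem173 is lower in the GC library of every batch and genotype, and many triangles of batch 3 lie at 0.

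Adar (chr3:89715022-89764632), whose product converts adenosine to inosine in double-stranded RNA, had close levels in the non-GC cells of both genotypes in each batch. It measured 6.49, 6.70 and 1.75 FPKM in Ifnar1KO non-GC cells and 6.48, 6.67 and 2.04 FPKM in Sle1b non-GC cells. Its GC values were 3.25, 4.02 and a listed 0 FPKM in Ifnar1KO, against 10.6, 10.1 and a listed 0 FPKM in Sle1b. GC against non-GC, the log2 differences in batches 1 and 2 were -0.82 and -0.62 in Ifnar1KO and 0.63 and 0.53 in Sle1b. In batch 3 they were -1.51 in Ifnar1KO and -1.6 in Sle1b, and its GC cells gave no contrast between genotypes. The share of all items with such opposite signs in batches 1 and 2 was not counted. The difference of Ifnar1KO against Sle1b in GC cells was -0.88 (SE 0.58; limma, adjusted p = 0.808), and the genotype by cell type interaction was -0.83 (SE 0.82, adjusted p = 0.996). Without batch 3 these were -1.29 (SE 0.56; unadjusted p = 0.0458 from limma, adjusted p = 0.577) and -1.30 (SE 0.79, adjusted p = 0.949). Averaged over genotypes, GC against non-GC differed by -0.56 (SE 0.41, adjusted p = 0.494; -0.07 without batch 3), and averaged over cell types Ifnar1KO against Sle1b differed by -0.46 (SE 0.41, adjusted p = 0.991). The locus also holds Chrnb2, on the opposite strand.

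Eif2ak2 (chr17:78852235-78906992) encodes PKR, which halts translation when it binds double-stranded RNA, and had the largest averaged difference between genotypes among the 8 genes. It measured 2.63, 1.18 and a listed 0 FPKM in Ifnar1KO GC cells, against 7.33, 19.6 and a listed 0 FPKM in Sle1b GC cells. Its non-GC values were 5.51, 5.90 and 3.65 FPKM in Ifnar1KO, against 5.79, 28.8 and 4.68 FPKM in Sle1b. Ifnar1KO was lower in each pair that had a signal, with log2 differences of -1.20 and -3.24 in the GC cells of batches 1 and 2 and -0.06, -2.11 and -0.29 in the non-GC cells of batches 1, 2 and 3. Lower in at least 5 of 6 pairs and higher in none held for 326 of 14603 items (2.23%). The averaged log2 difference was -1.16 (SE 0.53; unadjusted p = 0.0463 from limma across all items, adjusted p = 0.991). It was -1.50 (SE 0.74, adjusted p = 0.773) in GC and -0.82 (SE 0.74, adjusted p = 1.00) in non-GC cells. Leaving out batch 3, the averaged difference was -1.65 (SE 0.54, adjusted p = 0.999). GC against non-GC, Eif2ak2 was lower in all 3 batches of Ifnar1KO mice and in 2 of 3 of Sle1b mice, with an averaged difference of -1.25 (SE 0.53, adjusted p = 0.243; -0.69 without batch 3). The locus also holds Sult6b1 on the same strand.

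**Figure D2:**
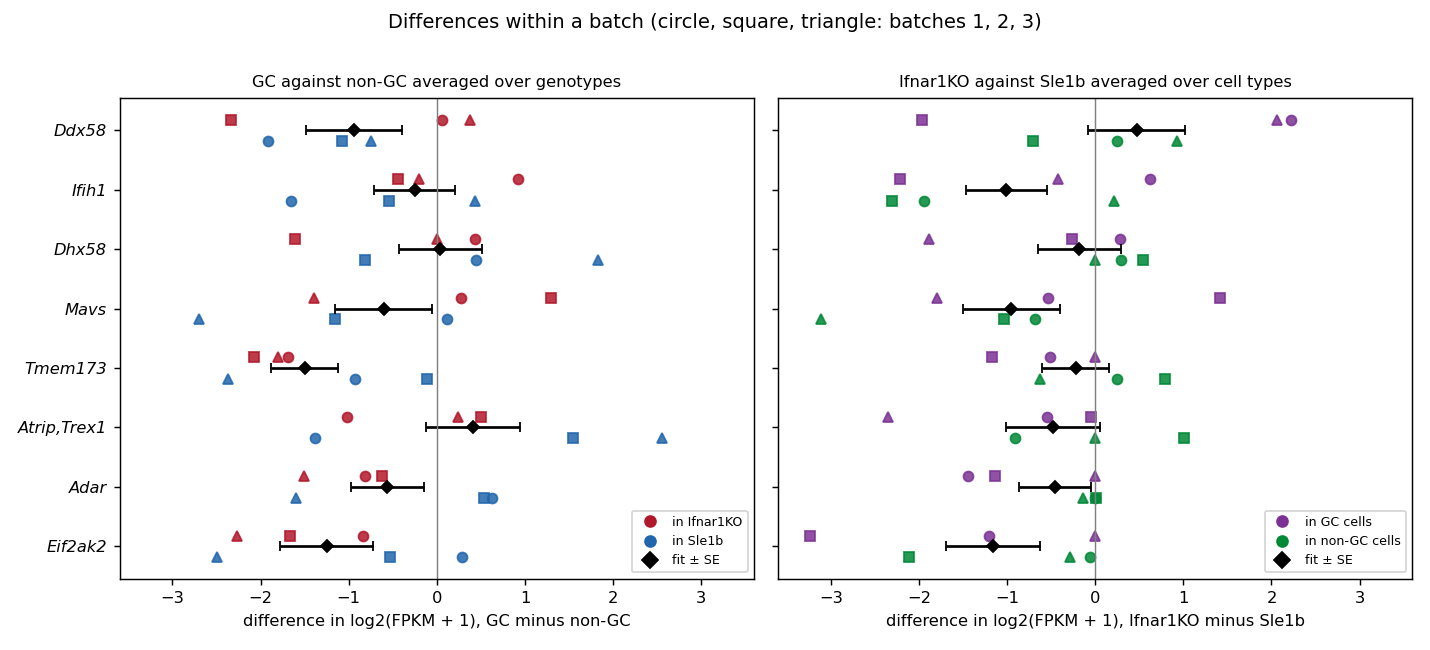
Differences in log2(FPKM + 1) of each gene within each batch, GC minus non-GC on the left and Ifnar1KO minus Sle1b on the right, with the fitted mean and its standard error as a black diamond. Tmem173 lies left of 0 in all 6 pairs on the left, and Eif2ak2 lies at or left of 0 in all pairs on the right.

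Read together, 0 of the 8 genes passed an adjusted p of 0.05 in any of the 7 comparisons (limma, Benjamini-Hochberg over 14603 items). The background was as thin. GC against non-GC, 4 items passed when averaged over genotypes (0.0274%), 3 in Ifnar1KO (0.0205%) and 0 in Sle1b. Ifnar1KO against Sle1b, 0 passed in GC cells, in non-GC cells or averaged over cell types, and 0 passed for the interaction. At an unadjusted p under 0.05 (limma), the averaged GC comparison held 2 of the 8 genes, Tmem173 and Eif2ak2, against 2596 items (17.8%). The averaged genotype comparison held 2 of the 8, Ifih1 and Eif2ak2, against 580 items (3.97%). With batch 3 left out and the filter redone, 616 of 12310 items (5%) passed in the averaged GC comparison and still 0 of the 8 genes. The median of the 8 genes was -0.58 for GC against non-GC, where that of all items was -0.26, and -0.47 for Ifnar1KO against Sle1b, where that of all items was -0.12. Of the 8, 6 lay below 0 for GC against non-GC and 7 for Ifnar1KO against Sle1b, where 64.7% and 60.6% of all items did.

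The proteins that act with the 8 genes were followed in 5 lists with 71 genes, of which 67 were tested. With limma over all items, 0 passed in either direction in any comparison. At an unadjusted p under 0.05, 9 did so for GC against non-GC, where 17.8% of all items did, and 4 for Ifnar1KO against Sle1b, where 3.97% of all items did, each averaged. The largest differences of steady direction are given here as values. Among 15 tested partners of RNA sensing, Rnf125, a ubiquitin ligase that marks RIG-I for destruction, had a median of 5.60 FPKM in GC and 0.199 FPKM in non-GC libraries, a log2 difference of 1.82 (SE 0.52, adjusted p = 0.126). Without batch 3 and with the filter redone, it passed the threshold (2.32, SE 0.52, limma adjusted p = 0.0439), as did Nlrx1, a mitochondrial relative of the NOD-like receptors (1.78, SE 0.40, adjusted p = 0.0447). These were 2 of 66 partner genes tested there, where 5% of all items passed. Without batch 3 on the unchanged items neither passed (adjusted p = 0.105 for Rnf125 and 0.0717 for Nlrx1). The Dicer partner Tarbp2, which also inhibits PKR, differed by 1.21 and was higher in GC in all 6 pairs. The helicase Ddx3x, with medians of 28.8 FPKM in GC and 54.2 FPKM in non-GC libraries, differed by -1.49 (SE 0.44, adjusted p = 0.133). The antiviral zinc finger protein Zc3hav1 differed by -0.81, and both were lower in GC in all 6 pairs. Ifnar1KO against Sle1b, the helicase Ddx60 differed by -0.89 and Tarbp2 by -0.70 (adjusted p = 0.991 for each).

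Among 15 tested kinases and adaptors downstream, Azi2, a TBK1 adaptor, had medians of 12.3 FPKM in GC and 23.5 FPKM in non-GC libraries. It differed by -1.36 (SE 0.39; limma, adjusted p = 0.128) and was lower in GC in all 6 pairs. The kinase regulator Ikbkg differed by -1.24 and the adaptor Traf2 by 0.85, each in the same direction in 5 of 6 pairs. The transcription factor Irf3, on which both sensing routes converge, had medians of 14.9 FPKM in Ifnar1KO and 20.0 FPKM in Sle1b libraries, a difference of -0.54 (SE 0.41, adjusted p = 0.991).

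Of 16 partners of DNA sensing 14 were tested, and Mb21d1, which encodes cGAS, did not pass the filter. Among the 14, Zbp1, a receptor for left-handed nucleic acid, lay low in GC and in Ifnar1KO libraries without passing either test. Its median was 2.95 FPKM in Ifnar1KO, against 10.1 FPKM in Sle1b libraries, a difference of -1.41 (SE 0.54; unadjusted p = 0.0212 from limma across all items, adjusted p = 0.991). Its median was 1.31 FPKM in GC, against 7.05 FPKM in non-GC libraries, a difference of -1.29 (SE 0.54, adjusted p = 0.240). The DNA end-binding protein Xrcc6 differed by -1.28 (SE 0.49, adjusted p = 0.991) for Ifnar1KO against Sle1b, and the ubiquitin ligase Trim56 by -0.77 for GC against non-GC. Among 10 genes of nucleic acid removal and editing, the dNTP hydrolase Samhd1 was abundant, with medians of 75.5 FPKM in GC and 173 FPKM in non-GC libraries and a difference of -0.84 (SE 0.43, adjusted p = 0.317). The ribonuclease H2 subunit Rnaseh2a differed by -0.78, the RNA exosome helicase Skiv2l by 0.95 and the extracellular deoxyribonuclease Dnase1l3 by 0.78.

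Among 13 genes of the translation arm that PKR acts on, the stress-induced transcription factor Ddit3 had the largest averaged difference between genotypes. Its median was 4.15 FPKM in Ifnar1KO, against 10.6 FPKM in Sle1b libraries, a difference of -1.57 (SE 0.54; unadjusted p = 0.0125 from limma across all items, adjusted p = 0.991). The exchange factor subunit Eif2b3 differed by -0.93. The sister kinase Eif2ak1, which senses haem, differed by 0.39 between genotypes, against -1.16 for Eif2ak2, and by -0.31 for GC against non-GC. Eif2ak4, which senses uncharged tRNA, differed by -0.66 for GC against non-GC and was lower in GC in all 6 pairs. Neither sister kinase passed the threshold.

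**Figure D3:**
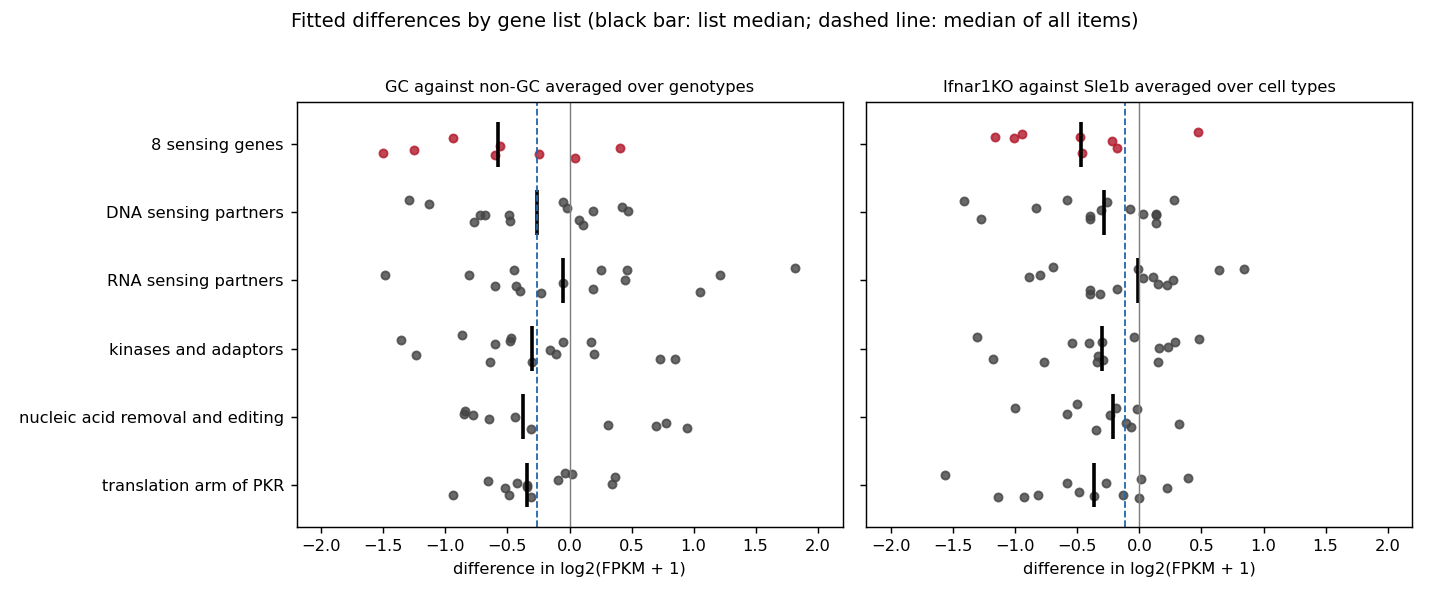
Fitted differences in log2(FPKM + 1) of the 8 sensing genes (red) and of the 5 lists of partner genes (grey), GC minus non-GC on the left and Ifnar1KO minus Sle1b on the right. Black bars mark list medians, which lie between -0.58 and -0.05 on the left, and the dashed line marks the median of all items, -0.26 on the left and -0.12 on the right.

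The genes whose pattern was most like that of each of the 8 were taken as those with the highest Pearson r of log2(FPKM + 1) after centring each batch, out of 14602 items. These r describe libraries that share batches and depth, and the highest of so many are high by selection, so no p is given. Over 12 libraries the nearest gene to Ifih1 was Oasl1, a protein of the oligoadenylate synthetase family (r = 0.96), followed by Abcd4 (r = 0.937) and Emc10 (r = 0.911). Over the 8 libraries of batches 1 and 2 it was Oasl1 again (r = 0.968), followed by Mx1, an antiviral GTPase (r = 0.959), and Tomm40l (r = 0.955). For Eif2ak2 the nearest over 12 libraries was Zbp1 (r = 0.965), followed by Stx5a (r = 0.939) and Pcyox1l (r = 0.937). Over the 8 libraries the nearest to Eif2ak2 were RP24-309H3.3 (r = 0.975), Rpsa-ps1 (r = 0.973) and RP23-209N19.1 (r = 0.973). Over 12 libraries the nearest to Tmem173 was the splicing factor Prpf39 (r = 0.987) and to Adar the Integrator subunit Ints9 (r = 0.988). To Mavs it was the mitochondrial channel Vdac2 (r = 0.948), followed by the B cell receptor signalling phospholipase Plcg2 (r = 0.943). The nearest to Ddx58 was Wipf2 (r = 0.91), to Dhx58 Hif3a (r = 0.945) and to the Atrip,Trex1 item Uckl1os (r = 0.958). Of the 24 genes taken over 12 libraries, 3 for each of the 8, only Oasl1 was taken again for the same gene over the 8 libraries. Not all of the 24 are printed here. Among the 28 pairs of the 8 genes, r ran from -0.46 to 0.82 over 12 libraries. The highest pair was Adar with Eif2ak2, at 0.82 over 12 libraries and 0.69 over 8, and Ifih1 with Eif2ak2 reached 0.56 and 0.75. Both Adar and Eif2ak2 were listed at 0 in both GC libraries of batch 3, which enters the values over 12 libraries.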

How the data were processed

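The submitters' processing notes name TopHat2 2.0.9 with Bowtie2 2.1.0, then Cuffdiff and Cufflinks 2.2.1, besides CASAVA, and the build GRCm38. The authors deposited 17 tables used here, each giving the FPKM of 2 libraries of a batch over 506504 loci, of which 45241 carried a gene name. As each table carries its own normalization, log2(FPKM + 1) values were joined within a batch by least squares. Loci of the same symbol were summed, and 9 items marked as failed were left out. Items with at least 1 FPKM in at least 3 libraries were tested with limma 3.58.1 in R 4.3.3 over all 12 libraries, two-sided, with batch as a block, a variance trend, 6 residual degrees of freedom and Benjamini-Hochberg adjustment. The procedure was tested on simulated normal values of equal spread around the real means. These had no pile of values at 0 and no outlying batch, so the simulation does not show how the procedure fares with batch 3. The block rests on the batches of the deposited tables; deviations from group means had a lowest r within batches 1, 2 and 3 of 0.276, 0.397 and 0.524, against a highest r to another batch of 0.459, 0.459 and -0.286, so batches 1 and 2 were not clearly apart. In batch 1 the table of Sle1b GC against Sle1b non-GC cells was not used here, and that difference was taken through the other tables. No pair of libraries held identical values (highest correlation 0.924). Low values were whole multiples of 1 read, within 0.1 read, for 99.5% to 100% of loci examined, and no count test was run. Whether strand was kept is not stated. The 8 genes and all lists were chosen with earlier results of these data known. Named are the 8 genes and, in each list, the genes past the threshold. Where none passed, the 2 with the largest difference in each direction and the same sign in at least 5 of 6 pairs are named. For each of the 8 the 3 nearest by correlation were taken. Those of Ifih1 and Eif2ak2 are printed in full, and for the others the nearest over 12 libraries, with the next for Mavs. One marker of the GC list is not reported here.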

Additional observations from a re-analysis of the deposited data

How the results depend on the processing

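In 1313 fits of the 8 genes under the reported and 23 other settings, 0 passed the threshold (limma), and the lowest adjusted p was 0.0801, for Tmem173 in the averaged GC comparison when 1 FPKM was asked for in 6 of 12 libraries; Ifih1 was not tested there. Of 24 differences examined, 17 kept their direction, among them Tmem173 for GC against non-GC (-2.57 to -0.82) and Eif2ak2 for Ifnar1KO against Sle1b (-1.65 to -0.75). The other 7 changed sign. Averaged over genotypes, GC against non-GC was 0.0685 for Ifih1 with libraries centred on their median and 0.13 for Mavs and -0.0851 for Atrip,Trex1 without batch 3. For Dhx58 it was -0.0392 with a pseudocount of 5, -0.39 without batch 3 and -0.19 from direct tables only. Ifnar1KO against Sle1b was -0.0483 for Ddx58 and 0.21 for Dhx58 without batch 3, and 0.0331 for Dhx58 with centred libraries. With 1 library left out, GC against non-GC ran from -0.57 to 0.0515 for Ifih1 and -0.32 to 0.31 for Dhx58, and Ifnar1KO against Sle1b from -0.45 to 0.18 for Dhx58 and -0.41 to 0.0034 for Tmem173.

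The number of all items called for GC against non-GC averaged over genotypes, 4 as reported, was 616 without batch 3 and with the filter redone (12310 items tested), 1 without batch 3 on the same items, 28 with the stricter filter, 27 with centred libraries, 26 with a pseudocount of 5, 1 with a pseudocount of 0.1, 1 with no filter, 10 from direct tables only, 0 with no replicate block and 1 to 13 with 1 library left out. In Ifnar1KO, 3 as reported, it was 39 without batch 3 and with the filter redone, 1 each with centred libraries, no filter and a pseudocount of 0.1 or 5, 0 each without batch 3 on the same items, from direct tables only, with no replicate block and with only the 2 groups compared, and 0 to 3 with 1 library left out. In Sle1b, 0 as reported, it was 10 without batch 3 and with the filter redone, 2 with the stricter filter and 0 to 1 with 1 library left out. Ifnar1KO against Sle1b in GC cells gave 1 without batch 3 and with the filter redone; it, the comparison in non-GC cells and the interaction gave 0 to 1 with 1 library left out. The cause of these changes was not tested. Groups of 3 libraries, with batch 3 apart and many values at 0 there, limit what could be detected.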
